A study of Mus musculus with 4 samples.

Results

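The miR-17-92 cluster and its paralogs were followed in MC3T3-E1, a mouse osteoblastic cell line, through 10 main arms picked by probe name. These were mmu-miR-17-5p, mmu-miR-17-3p, mmu-miR-18a-5p, mmu-miR-20a-5p and mmu-miR-92a-3p of the miR-17-92 cluster, mmu-miR-106a-5p and mmu-miR-20b-5p of the miR-106a cluster, and mmu-miR-106b-5p, mmu-miR-93-5p and mmu-miR-25-3p of the miR-106b cluster, named below without the species prefix. Each had 1 probe with 1 spot, out of 1898 miRNA probes, and all 10 gave a signal above the detection limit on all 4 arrays, as 483 of the 1898 did. The names are those of mature miRNAs, so a 5p and a 3p arm of 1 hairpin are separate members.

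The cells grew in proliferation medium, in alpha-MEM with 10% FBS. All 4 groups received a recombinant adenovirus, which carried GFP in the control and Wnt4, Wnt3a or Wnt5a in the others, and each group was measured on 1 one-colour array. Of these ligands Wnt3a stabilises beta-catenin, Wnt5a acts mostly through other routes, and Wnt4 has been tied to both. The study concerned miRNAs in the crosstalk of Wnt with TGF-beta. With 1 array per group and a single cell line no difference has a replicate check and none carries a p-value. The Wnt transcripts themselves are not on a miRNA array, so overexpression was not checked here.

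Each cluster is cut from a long primary transcript into several hairpins, and Dicer then releases the mature arms. The miR-17-92 cluster is a target of the MYC and E2F transcription factors, and its products promote proliferation by lowering, among others, the cell-cycle inhibitor p21 (Cdkn1a) and the pro-apoptotic protein Bim. Members with the miR-17 seed also target the type II TGF-beta receptor, and loss of the cluster disturbs skeletal growth in mice. The miR-106b cluster overlaps Mcm7, which encodes a replication helicase subunit, in the RefSeq annotation of assembly GRCm38.p6. In that annotation the miR-17-92 cluster lies on chromosome 14, the miR-106a cluster on chromosome X and the miR-106b cluster on chromosome 5, and miR-92a-3p is encoded on both chromosomes 14 and X.

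The mature sequences show how closely the members are related, which bears on what a probe can tell apart. A miRNA recognises its targets mainly through the seed, bases 2 to 8, printed in capitals below. All 10 sequences were found in RefSeq (GRCm38.p6). The first 6 share 1 seed and include members of all 3 clusters.
miR-17-5p: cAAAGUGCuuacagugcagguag
miR-20a-5p: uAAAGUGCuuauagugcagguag
miR-106a-5p: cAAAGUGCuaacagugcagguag
miR-20b-5p: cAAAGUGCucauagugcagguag
miR-106b-5p: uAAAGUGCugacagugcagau
miR-93-5p: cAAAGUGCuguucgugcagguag
miR-18a-5p: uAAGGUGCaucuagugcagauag
miR-92a-3p: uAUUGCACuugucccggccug
miR-25-3p: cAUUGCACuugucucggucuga
miR-17-3p: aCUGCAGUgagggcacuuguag

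Positions are counted from 1 at the 5′ end. Between miR-17-5p and miR-106a-5p, from chromosomes 14 and X, the only substitution was U10A. From miR-20a-5p to miR-20b-5p, also from chromosomes 14 and X, the substitutions were U1C and U10C. Over its 21 bases miR-106b-5p differed from miR-17-5p by C1U, U10G and G20A, and miR-93-5p differed from miR-17-5p by U10G, A11U, C12U and A13C. In the other seed group miR-25-3p differed from miR-92a-3p by U1C, C14U and C18U over 21 bases. The probe sequences are not given in the sources used here, so signals of miRNAs that differ at 1 or 2 bases may include each other's RNA, and this was not tested.

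The arrays differed in their floor, which matters for the dim members. A miRNA counted as detected when its spot median, in scanner intensity units, exceeded the mean of the array's blank spots by 2 SD. That limit was 104 units for GFP, 86.8 for Wnt4, 81.7 for Wnt3a and 111 for Wnt5a, and 617, 549, 1067 and 502 miRNAs were detected in that order. On the Wnt3a array the negative control spots averaged 84.0 units and lay above the limit drawn from blank spots, whose mean was 72.8, whereas on the GFP array these means were 95.8 and 90.8. Subtracting the negative control mean in place of the blank mean moved the Wnt3a over GFP difference of the dim member miR-17-3p from 0.55 to 0.60 and that of miR-18a-5p from 0.49 to 0.54 on the log2 scale, both after quantile normalization. That normalization keeps the ranks within an array, so each array's constant entered only through the average over the 4 arrays. What the raised Wnt3a floor alone would change was therefore not tested. Of 18 probes for mesenchymal and osteoblastic miRNAs, 15 to 18 were detected per array. Their median spot was 1010 units with GFP, 901 with Wnt4, 505 with Wnt3a and 1136 with Wnt5a, so it was lowest on the array where most of the members were highest, and the part of this in the members' differences was not tested. Neither probe of the liver marker miR-122 was detected, although 1 of them reached the rounded limit, 81.7 units, with Wnt3a. The brightest marker signal on any array was 129 units for blood, 134 for muscle, 122 for neural, 105 for epithelial, 109 for endothelial and 332 for pluripotent cells. With Wnt3a, 6 of 10 epithelial, 3 of 4 neural, 2 of 2 endothelial, 2 of 7 muscle, 3 of 9 blood and 7 of 18 pluripotent probes passed its lower limit, against 1, 1, 1, 1, 2 and 4 with GFP.

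Among the members from the miR-17-92 cluster, 3 of the 5 were moderately bright. miR-17-5p, which represses Cdkn1a and the type II TGF-beta receptor, had a spot median of 590 units with GFP, 483 with Wnt4, 718 with Wnt3a and 515 with Wnt5a. miR-20a-5p, of the same seed and with reported effects on E2F1, had 433, 423, 576 and 457 units in the same order. Both were highest on the Wnt3a array, which had the lowest blank mean. miR-92a-3p, of another seed group and known as a brake on vessel growth, had 225 units with GFP, 182 with Wnt4, 218 with Wnt3a and 213 with Wnt5a, so the Wnt3a array did not stand out.

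The 2 other miR-17-92 members lay close to the limit. miR-18a-5p, whose seed differs from the miR-17 seed and which is reported to target connective tissue growth factor, had 128 units with GFP, 106.1 with Wnt4, 138 with Wnt3a and 126 with Wnt5a. miR-17-3p, the opposite arm of the miR-17 hairpin, had 132, 110, 147 and 131 units. Above each array's blank mean miR-18a-5p gave 37.1 units with GFP and 65.1 with Wnt3a, and miR-17-3p gave 41.4 and 74.4.

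The paralogs on chromosome X resembled their relatives on chromosome 14. miR-106a-5p had 483 units with GFP, 406 with Wnt4, 559 with Wnt3a and 465 with Wnt5a. miR-20b-5p had 386, 301, 495 and 387 units in the same order. Both were again highest with Wnt3a. Their spot medians were lowest with Wnt4, as were those of all 10 members before normalization. After normalization the lowest array was Wnt5a for miR-106a-5p and Wnt4 for miR-20b-5p.

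The miR-106b cluster behaved otherwise. miR-106b-5p, of the miR-17 seed, had 382 units with GFP, 342 with Wnt4, 406 with Wnt3a and 408 with Wnt5a. miR-93-5p, of the same seed, had 657, 529, 613 and 602 units, and was highest with GFP. miR-25-3p, which shares the miR-92a seed, had 488 units with GFP, 410 with Wnt4, 417 with Wnt3a and 436 with Wnt5a, and was likewise highest with GFP.

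**Figure D1:**
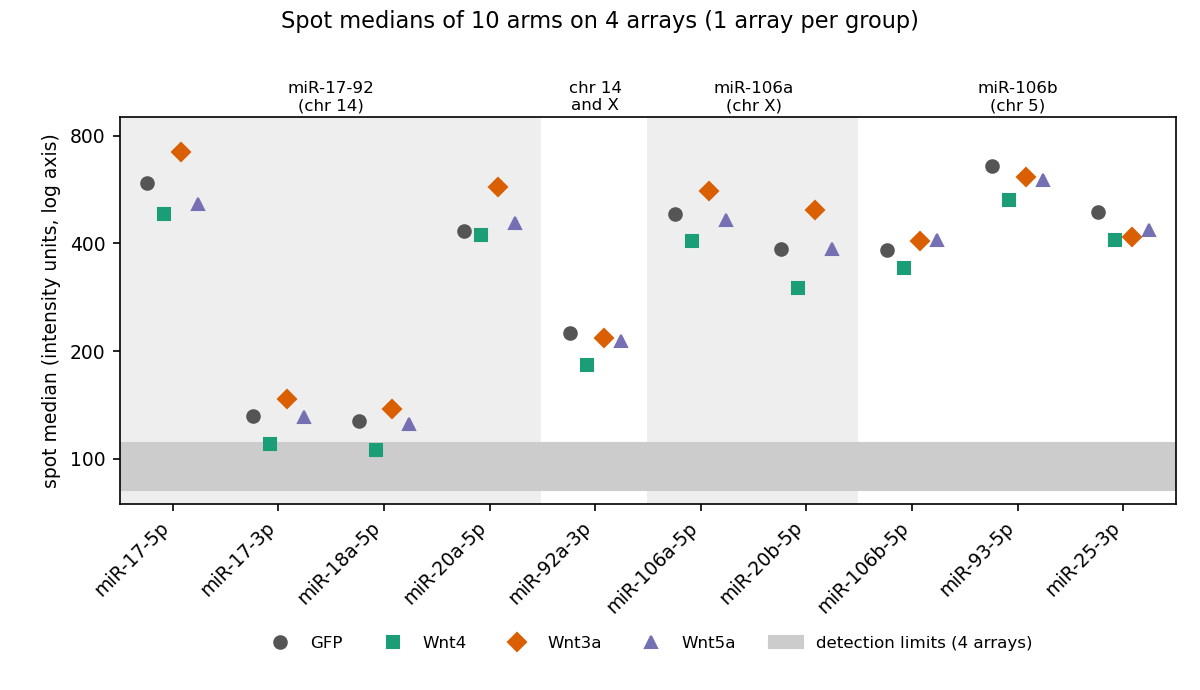
Spot medians in intensity units (log axis) of the 10 arms in cells given GFP, Wnt4, Wnt3a or Wnt5a, 1 point per array, grouped by cluster and chromosome, with the range of the 4 detection limits as a dark band. The Wnt3a point is the highest for the 6 arms encoded in just 1 of the miR-17-92 and miR-106a clusters. These points run from 138 units for miR-18a-5p to 718 for miR-17-5p. The Wnt3a point is not the highest for miR-92a-3p, encoded in both, or for the 3 arms of the miR-106b cluster.

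Wnt3a was compared with GFP to see whether the proliferation-linked clusters differed under a beta-catenin-activating ligand. For this the spot medians were background-corrected, put on a log2 scale and quantile-normalized, and each difference carries a standard error (SE) from replicate control spots, which covers spot-to-spot variation within arrays only. The 6 arms encoded in just 1 of the miR-17-92 and miR-106a clusters were higher with Wnt3a, by 0.19 to 0.39 on the log2 scale (SE 0.12). miR-92a-3p, which is encoded in both, did not differ beyond the SE, at -0.02. In the miR-106b cluster miR-106b-5p was at 0.08, miR-93-5p at -0.12 and miR-25-3p at -0.29. All these differences were under 1.5-fold, which 3.76% of the 612 miRNAs detected on both arrays reached in either direction.

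miR-20a-5p had the largest difference of the members in this processing, 1.31-fold higher with Wnt3a, at 0.39 (SE 0.12), and exceeded the differences of 95.9% of the 612 miRNAs. Its relative miR-20b-5p followed at 0.31, or 1.24-fold higher. These were the 2 members at least 1.2-fold higher, against 8.99% of all miRNAs. The next were miR-17-5p and miR-17-3p, both at 0.23, and miR-18a-5p and miR-106a-5p, both at 0.19. The values of the 2 dim arms, and with them the order, depended on the background correction. After plain subtraction of the blank mean miR-17-3p was at 0.55 and miR-18a-5p at 0.49, both past 1.2-fold and above miR-20a-5p at 0.46. In the rescaled deposited table these values were 0.65, 0.61 and 0.37. At the other end miR-25-3p, 1.22-fold lower, was the 1 member at least 1.2-fold lower, against 12.9% of all miRNAs. When the scanner's background column was subtracted, miR-20a-5p turned to -0.63, miR-18a-5p to -0.025 and miR-25-3p to 0.30.

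In total 7 of the 10 members were above 0 with Wnt3a, against 48% of all miRNAs, and the members' median was 0.19 while that of all 612 was 0.00. Also 7 of the 10 differed from GFP by more than the SE in either direction, against 51.8% of all miRNAs. Members of 1 cluster share a primary transcript, and the relatives on chromosome X share most of their sequence, so the 10 are not separate observations. In the authors' deposited table all 10 members were higher with Wnt3a, with a median of 1.54, but there the median over all miRNAs was 1.47. In that table miR-17-3p was at 2.04, above that median, and miR-25-3p at 0.99, below it.

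**Figure D2:**
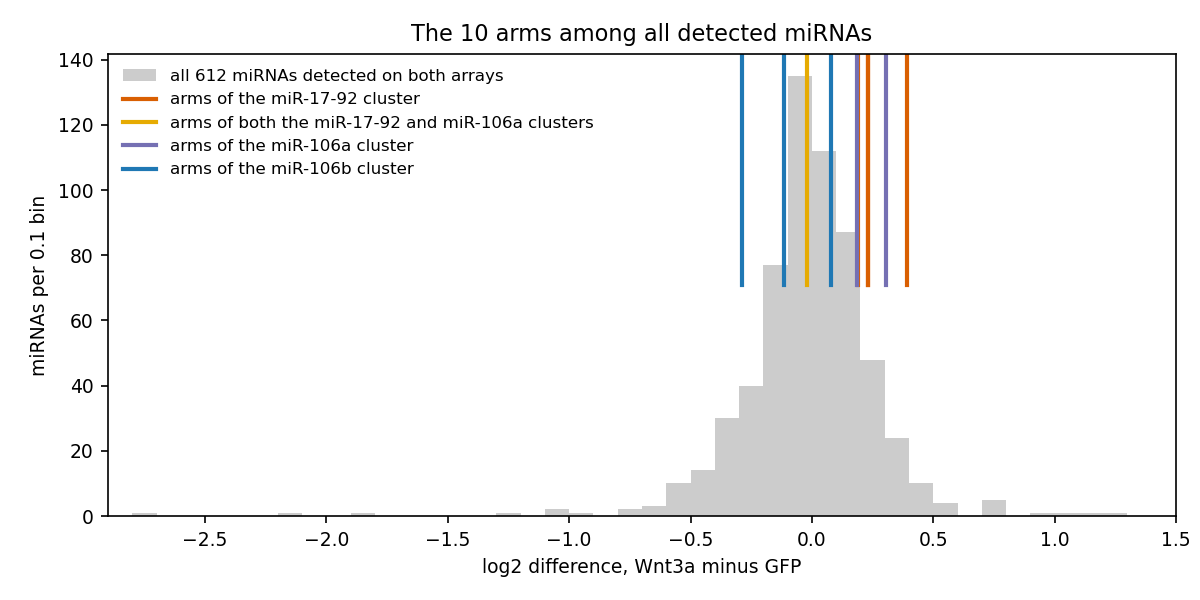
Histogram of the log2 difference between the Wnt3a and GFP arrays for the 612 miRNAs detected on both, in bins of 0.1, with a coloured line at each of the 10 arms. Apart from miR-92a-3p at -0.02, the lines of the miR-17-92 and miR-106a clusters lie between 0.19 and 0.39. Those of the miR-106b cluster lie between -0.29 and 0.08, and all 10 are inside the range of other miRNAs.

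A gap between clusters within 1 seed group cancels any shift that all miRNAs of an array share. It was set up after the values were seen and is a description. miR-17-5p, miR-20a-5p, miR-106a-5p and miR-20b-5p, from chromosomes 14 and X, averaged 0.28 with Wnt3a, and miR-106b-5p and miR-93-5p, from chromosome 5 and of the same seed, averaged -0.02. The gap was 0.30 (SE 0.11 from spot noise). The lowest of the first 4, miR-106a-5p at 0.19, lay above the higher of the other 2, miR-106b-5p at 0.08. The gap was above 0 in 11 of 12 alternative processings that recompute the values, with a lowest value of -0.09 and a highest of 0.37. The exception was the use of the scanner's background column, which rises with the spot's own signal. Whole-array scaling cannot move the gap, so these 12 are not separate checks. Without normalization and after scaling to the median, the upper quartile or the bright control probes the gap was the same, 0.33. In the deposited table it was 0.37 both as listed and rescaled. With Wnt4 the gap was -0.04 (SE 0.09) and with Wnt5a -0.03 (SE 0.13), both within the SE. The Wnt4 gap ran from -0.05 to 0.68 over 13 alternatives, with 6 above 0, and the highest value came from the background column. Those above 0 again included a repeated value. It was 0.0063 without normalization and after scaling to the median, the upper quartile or the bright control probes.

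**Figure D3:**
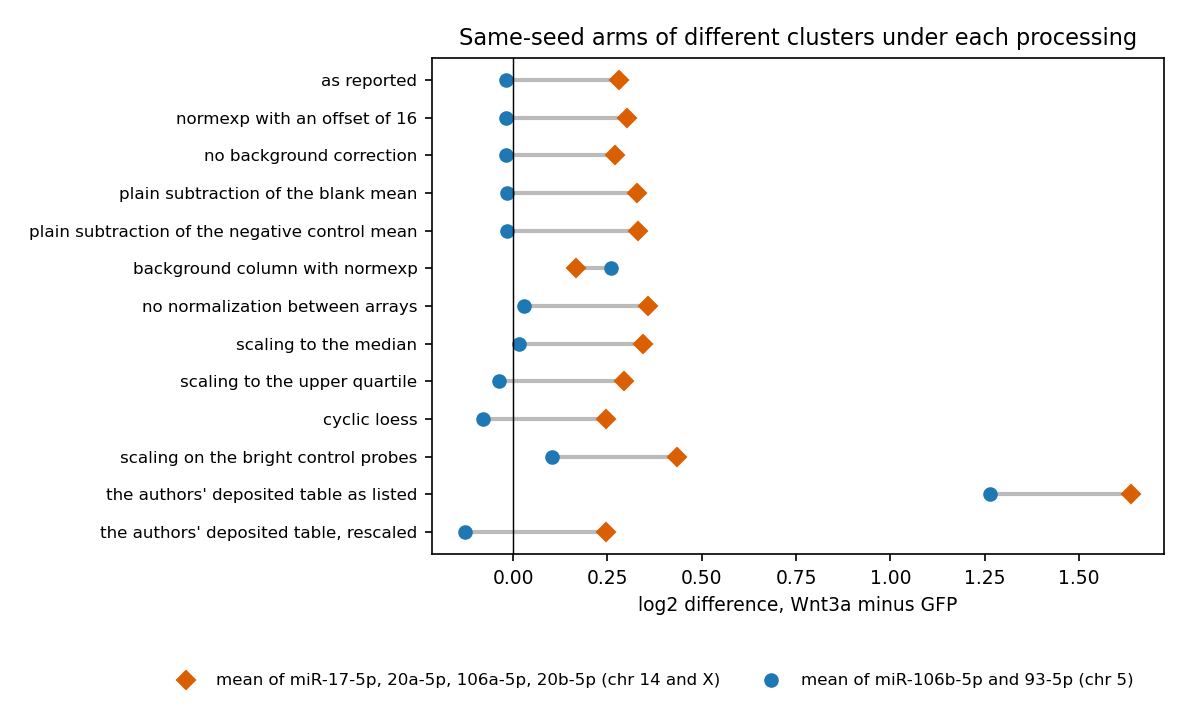
Mean log2 difference between the Wnt3a and GFP arrays of 4 same-seed arms from chromosomes 14 and X (diamonds) and of 2 from chromosome 5 (circles) under the reported and each alternative processing. The diamond lies to the right of the circle in all settings except the one with the background column, where the gap is -0.09. Whole-array scalings cannot change the distance between diamond and circle. The deposited table as listed moves both by over 1 unit.

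Wnt4 was compared with GFP in the same way, and members stayed near 0. miR-20a-5p was at 0.20 (SE 0.11), or 1.15-fold higher, although its spot medians were 433 and 423 units, and without normalization between arrays it was at 0.02. miR-20b-5p was the lowest, at -0.12, and the other 8 members lay within the SE. None of the 10 reached 1.2-fold, which 4.63% of 518 miRNAs did. In all, 4 of 10 were above 0 against 51.5% of all miRNAs, with a median of -0.03. This count depended on the scaling: 1 member was above 0 without normalization between arrays and 7 in the rescaled deposited table.

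With Wnt5a the members were also close to their GFP levels. miR-25-3p was at -0.20 (SE 0.14) and miR-17-5p at -0.19, the only ones beyond the SE, followed by miR-93-5p at -0.14. miR-106b-5p was the highest, at 0.10. None of the 10 reached 1.2-fold, which 4.67% of 493 miRNAs did. Above 0 were 2 of 10, against 47.5% of all miRNAs, with a median of -0.05, and miR-20b-5p was at 0.00. Scaled on bright control probes instead, 7 were above 0, and the median over all miRNAs was 0.13.

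**Figure D4:**
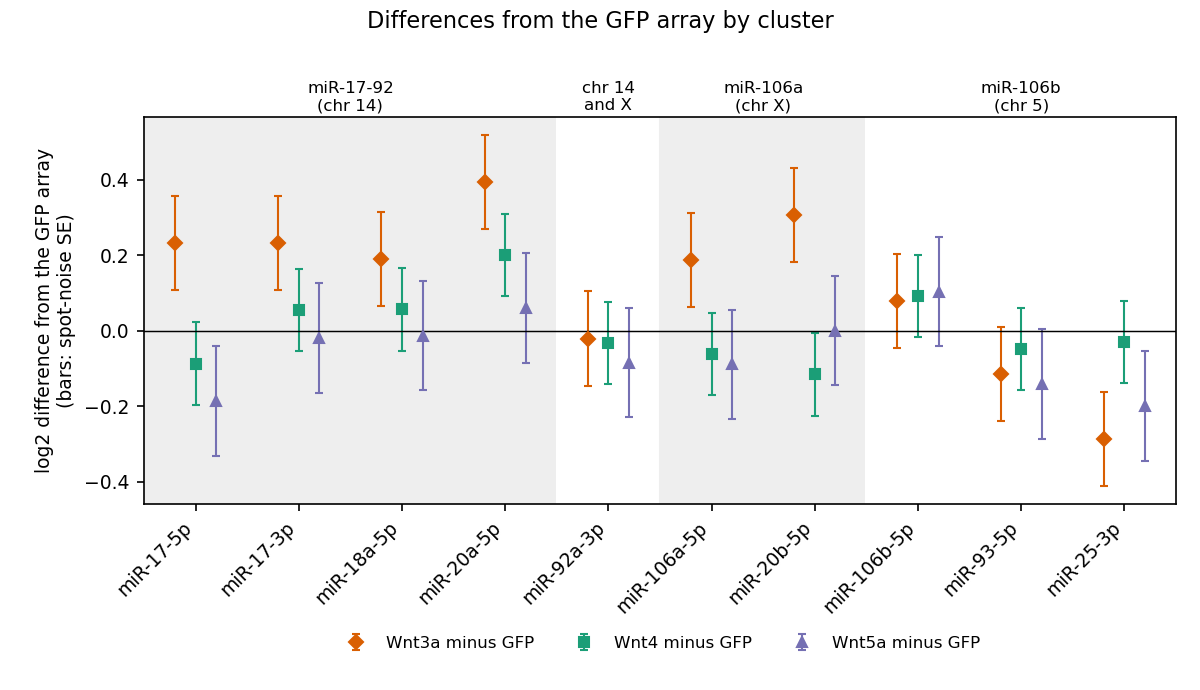
Log2 difference of each arm from the GFP array with Wnt3a, Wnt4 and Wnt5a, 1 array per group, with bars for the spot-noise SE, grouped by cluster and chromosome. The Wnt3a points of the miR-17-92 and miR-106a clusters other than miR-92a-3p lie at 0.19 or above, those of Wnt4 and Wnt5a lie between -0.20 and 0.20 for all arms.

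The Wnt arrays were also set against each other, which leaves out the GFP array but reuses the same Wnt arrays. Relative to Wnt4, Wnt3a had 7 of 10 members above 0, against 51.6% of 546 miRNAs, with a median of 0.15. miR-20b-5p at 0.42 (SE 0.13) and miR-17-5p at 0.32 were at least 1.2-fold higher, as 10.8% of miRNAs were, and miR-25-3p was at -0.26. With the background column this median was -0.10. Relative to Wnt5a, 8 of 10 were above 0 against 48.9% of 501 miRNAs, with a median of 0.23. There miR-17-5p at 0.42 (SE 0.16), miR-20a-5p at 0.33, miR-20b-5p at 0.31 and miR-106a-5p at 0.28 were at least 1.2-fold higher, as 9.98% of miRNAs were, while miR-106b-5p was at -0.02 and miR-93-5p at 0.03. Between Wnt5a and Wnt4, 2 of 10 were above 0 against 46.6% of 487 miRNAs, and none reached 1.2-fold, which 5.13% did.

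The order of the 4 arrays differed between members. For miR-17-5p, miR-17-3p, miR-18a-5p, miR-20a-5p, miR-106a-5p and miR-20b-5p the Wnt3a array was highest by more than the SE to its neighbour, which was GFP for miR-17-5p and miR-106a-5p, Wnt4 for miR-17-3p, miR-18a-5p and miR-20a-5p, and Wnt5a, level with GFP, for miR-20b-5p. The margin was smallest for miR-18a-5p, at 1.02 times the SE. For miR-20b-5p the GFP array also lay above Wnt4, the lowest, by 0.12 (SE 0.11). The levels of miR-92a-3p, miR-106b-5p and miR-93-5p spanned 0.08, 0.10 and 0.14, and no neighbours in their order differed beyond the SE. miR-25-3p was lowest with Wnt3a, which did not differ beyond the SE from Wnt5a, and Wnt4 lay 0.17 (SE 0.15) above Wnt5a.

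How alike 2 members were over the 4 arrays was measured by the Euclidean distance between their log2 levels, each centred on its own mean. Among the 15 pairs with the miR-17 seed the distance ran from 0.10 to 0.38, with a median of 0.24. Spot noise enters these distances on every array, with an SD of 0.07 for GFP to 0.13 for Wnt5a. The order of the pairs was not tested against it. The closest pair was miR-17-5p and miR-106a-5p, which differ at 1 base, and the next was miR-106a-5p and miR-20b-5p at 0.14, which differ at 2. The pair with the most differences, miR-106b-5p and miR-93-5p with 5, was the fourth closest of the 15, at 0.18. The most distant pair was miR-20b-5p and miR-93-5p, which differ at 3 bases. Shared signal between probes of near-identical miRNAs and shared changes of their RNA cannot be told apart here.

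Besides the 10 members, the array carried 18 other arms of the 3 clusters, of which 4 were detected on all 4 arrays. miR-19b-3p, an arm encoded in both the miR-17-92 and miR-106a clusters, had 275 units with GFP, 239 with Wnt4, 342 with Wnt3a and 303 with Wnt5a. It was higher with Wnt3a by 0.28 (SE 0.12), and at 0.07 with Wnt4 and 0.10 with Wnt5a. Its sequence is shown beside that of miR-19a-3p, its relative with the same seed, because the signals of this pair may overlap.
miR-19a-3p: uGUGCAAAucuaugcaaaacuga
miR-19b-3p: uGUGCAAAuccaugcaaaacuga

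From miR-19a-3p to miR-19b-3p the substitution was U11C. miR-19a-3p had 103 units with GFP, 87.9 with Wnt4, 102 with Wnt3a and 106.1 with Wnt5a, and was above the limit with Wnt4 and Wnt3a only. The remaining arms detected throughout were mostly passenger strands. miR-92a-2-5p and miR-363-5p of the miR-106a cluster were at 0.12 and 0.09 with Wnt3a, and miR-25-5p at 0.17 (SE 0.12), while miR-25-3p from the same hairpin was at -0.29. miR-363-5p had 187 to 224 units per array, whereas miR-363-3p, from the same hairpin, was below the limit on all 4 arrays, at 67.6 to 88.8 units. Of the 18 arms, 6 were detected on both the GFP and Wnt3a arrays, as were 612 of all 1898 miRNAs. Above 0 were 4 of these 6, against 48% of all miRNAs, with a median of 0.11, and miR-18b-3p of the miR-106a cluster was at -0.13. A RefSeq mature sequence was found for 1612 of the 1898 miRNA probes, and only these were searched for shared seeds. The 4 of them outside the clusters that carry a member's seed were miR-92b-3p, miR-32-5p, miR-367-3p and miR-6383. Each was detected on at most 1 array.

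The miR-15/16 family, known to restrain the cell cycle by targeting cyclins, was taken as a comparison, with 6 of 6 arms detected on all arrays. With Wnt3a none of its arms was above 0, its median was -0.42, and 5 of 6 were at least 1.2-fold lower, with miR-16-5p at 0.00, whereas 48% of the 612 miRNAs were above 0 and 12.9% were at least 1.2-fold lower. In the same pair of arrays 7 of the 10 members were above 0. These were the 6 encoded in just 1 of the miR-17-92 and miR-106a clusters, and miR-106b-5p at 0.08. Below 0 were miR-92a-3p at -0.02, miR-93-5p at -0.12 and miR-25-3p at -0.29, the last at least 1.2-fold lower. No test of the family against the members was possible with 1 array per group.

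Outside the clusters, the 5 miRNAs whose centred levels over the 4 arrays were nearest to the mean profile of the 10 members, among 469 candidates, were miR-5130, miR-7045-3p, miR-705, miR-6366 and miR-292b-3p. Their distances ran from 0.03 to 0.05, below the spot-noise SD of each array, 0.07 to 0.13. The members' own distances from this profile ran from 0.05 for miR-18a-5p, which lay nearer than miR-292b-3p, to 0.32 for miR-25-3p.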

How the data were processed

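Total RNA labelled with Hy5 by a kit for LNA miRNA arrays was hybridised to 4 one-colour arrays, per the labels' protocols. The deposited scanner files hold raw median intensities of 3200 spots, read at 635 nm at 3 gains per the file headers, with a background median per spot. The deposited table of processed intensities was matched to the scanner values: subtracting an array's blank mean from the spot medians and multiplying by a single factor gave its listed values, with residuals up to 0.0951 units. These factors were 0.405, 0.399, 0.929 and 0.285 for GFP, Wnt4, Wnt3a and Wnt5a. No source used here says how the authors chose them.

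The background column followed the spot signal (Pearson's r of log2 values over miRNA probes, 0.945 to 0.985) and was not subtracted. Spot medians were corrected with normexp (offset 50), and 1898 miRNA probes were quantile-normalized with limma 3.58.1 in R 4.3.3. The 2 further miRNA probes with a flag other than OK at any gain were left out. Later steps used Python 3.11.15 with pandas 2.3.3. Detection limits lay 2 SD above the mean of 896 blank spots, trimmed to their middle 95%. The spot-noise SE pooled 6 control probes with 8 spots each. The 5 bright ones averaged 1074 units or more on each array, above every member, and the dim one averaged 117 to 142 units. This SE was taken before quantile normalization and used for all processings. How well it holds for dim spots was not tested. The number of arrays limits the precision, and the steps were tested on simulated data. The offset shrinks the folds of dim probes.

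The members and lists were chosen with earlier results of these data known. Named were all members, the other arms of the 3 clusters and miRNAs with a member's seed where detected throughout, the 5 most alike miRNAs, and the miR-15/16 family by its counts. Alternatives covered background, normalization, limits and the deposited table; those for counts above 0, 2 of the processings and the limit from negative controls were chosen after seeing the data. Coordinates are left out because the arrays' build is unnamed. No per-sample column was unused.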

Additional observations from a re-analysis of the deposited data

How the results depend on the processing

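With Wnt3a over GFP, 7 to 10 of the 10 members were above 0 under all 15 alternatives, which were chosen for this count after seeing the data. The 3 detection limits among them could not change a value and removed no member here. The other normexp offset, no background correction and both plain subtractions kept the ranks within each array before quantile normalization. They could change the size of a difference but not its sign, so they could not change this count either. With the background column the 7 were not the same members. miR-20a-5p, miR-18a-5p and miR-106b-5p fell below 0 there, while miR-92a-3p, miR-93-5p and miR-25-3p rose above it. The members' median was 0.33 when arrays were scaled on bright control probes (all miRNAs 0.12) and 1.54 in the deposited table as listed (all miRNAs 1.47). Counts above 0 were less stable elsewhere. For Wnt4 they were 9 with the background column, 1 without normalization between arrays, with scaling to the median or in the deposited table, and 7 in the rescaled table. For Wnt5a they were 7 with the background column or the bright control probes, 5 without normalization or with scaling to the median, 0 in the deposited table and 4 in the rescaled table. The deposited table put the members' median at -0.26 for Wnt4 and -0.69 for Wnt5a over GFP, 1.76 for Wnt3a over Wnt4, 2.15 for Wnt3a over Wnt5a and -0.41 for Wnt5a over Wnt4, shifts that the medians of all miRNAs share. Without normalization the median was -0.21 for Wnt4 over GFP, 0.38 for Wnt3a over Wnt4 and 0.14 for Wnt5a over Wnt4, and with the bright control probes the last 2 were 0.30 and 0.085. The background column gave 0.17 for Wnt4 over GFP and turned Wnt3a over Wnt4 to -0.10. It also turned miR-20a-5p to -0.63, miR-18a-5p to -0.025 and miR-25-3p to 0.30 with Wnt3a, miR-20b-5p to 0.021 with Wnt4, and miR-17-5p to 0.14 and miR-25-3p to 0.48 with Wnt5a. In the deposited table miR-25-3p was at 0.99 with Wnt3a. The cause was not tested. Single members kept their value within the SE in 296 of 380 recomputations, not counting the 3 detection limits, which cannot change a value. No paired analysis was possible because each group had 1 array and the labels give no replicate numbers.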
